A study of Mus musculus with 23 samples.

Results

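Receptor-type protein tyrosine phosphatases (PTPs) were followed as 10 genes, Ptprb, Ptprr, Ptprm, Ptprj, Ptpre, Ptprc, Ptprg, Ptprk, Ptpro and Ptprf, through 4 stages of blood cell formation from mouse embryonic stem (ES) cells, with and without RUNX1-ETO. They were found by matching the accession of each array probe to a gene symbol, and the brightest probe on average stood for its gene. They made up 10 of 20145 genes with a named probe, and all 10 were among the 15202 genes called expressed, for which 1 array or more had to reach 6.5 on the log2 scale. The set was chosen by the change of Ptprb with Dox in CD41+KIT+Tie2- progenitors, a value of these arrays. It was then widened to 10 of 22 listed receptor-type PTP genes, with earlier results of these data known. Counts over the 10 do not describe the whole family. Because of the choice by Ptprb, the response to Dox in these progenitors is given for all 10 genes as values without a test. The same holds for the step from HE2 into induced progenitors. Values of Ptprb in steps that use the uninduced progenitor arrays are descriptions too.

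All groups were grown from 1 modified ES cell line that carries human RUNX1-ETO, the fusion protein of t(8;21) acute myeloid leukaemia, under a tetracycline-responsive promoter, with Runx1 itself wild type and the strain labelled C57BL/6. The transgene was switched on by doxycycline (Dox) at 0.1 μg per ml, and cells given Dox without the transgene were not analysed here, so that an effect of Dox alone cannot be told apart from that of RUNX1-ETO. Haemogenic endothelium (HE, KIT+Tie2+CD41-), HE2 (KIT+Tie2+CD41+) and progenitors (KIT+Tie2-CD41+) were sorted from blast culture, to which Dox had been added on day 1 for the induced groups. Myeloid progenitors were progenitors placed in expansion medium with cytokines, with Dox for 12 h or without it, so that the induction differed in length and timing from that of the sorted stages. HE, HE2 and myeloid progenitors had 3 arrays in each of their uninduced and induced groups, titled as biological replicates. Progenitors had 2 and 2. Of the 3 induced myeloid progenitor arrays, 1 was also labelled as a technical replicate and was used as replicate 3. That group may thus hold fewer than 3 independent samples. An additional uninduced progenitor array, labelled both as a technical replicate and as replicate 3, stayed outside the fit.

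Receptor PTPs cross the plasma membrane and remove phosphate from tyrosines inside the cell, which opposes or, for Src family kinases, releases the activity of tyrosine kinases. Ptprb encodes VE-PTP, the phosphatase of endothelial cells that acts on the angiopoietin receptor Tie2 and on VE-cadherin. Ptprj (DEP-1, CD148) and Ptpro (GLEPP1) belong to the same subfamily. Ptprr binds and inactivates MAP kinases, Ptpre acts on Src family kinases, and Ptprc encodes CD45, the phosphatase of nucleated blood cells. Ptprm and Ptprk bind their own kind on neighbouring cells and act at cadherin junctions, Ptprf (LAR) is linked to focal adhesions, and Ptprg carries a carbonic anhydrase-like outer domain.

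RUNX1 and RUNX1-ETO bind the same DNA letters through the Runt domain. Promoter sequences from RefSeq (build GRCm38.p6, 250 bases before to 50 bases after a start) matched 9 of the 10 genes, all but Ptprb, in 17 windows. The 3 windows that hold the letters TGTGGT or TGCGGT on either strand belonged to Ptprr, Ptprj and Ptpre, and are shown because they hold those letters. Capitals mark those letters and the ETS letters GGAAGT, each read on both strands.
Ptprr, chr10:116018113-116018412, plus strand: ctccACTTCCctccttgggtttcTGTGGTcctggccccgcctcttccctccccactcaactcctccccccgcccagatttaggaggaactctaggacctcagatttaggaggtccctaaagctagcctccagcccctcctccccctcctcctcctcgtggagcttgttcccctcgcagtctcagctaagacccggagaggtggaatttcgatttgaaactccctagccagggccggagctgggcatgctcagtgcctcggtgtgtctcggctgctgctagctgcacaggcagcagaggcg
Ptprj, chr2:90479125-90479424, minus strand: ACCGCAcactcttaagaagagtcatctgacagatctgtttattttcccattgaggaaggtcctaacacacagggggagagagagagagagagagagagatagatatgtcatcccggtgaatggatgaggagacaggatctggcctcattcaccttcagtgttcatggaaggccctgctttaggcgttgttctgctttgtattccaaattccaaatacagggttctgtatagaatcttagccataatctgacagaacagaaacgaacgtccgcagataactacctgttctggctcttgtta
Ptpre, chr7:135605578-135605877, plus strand: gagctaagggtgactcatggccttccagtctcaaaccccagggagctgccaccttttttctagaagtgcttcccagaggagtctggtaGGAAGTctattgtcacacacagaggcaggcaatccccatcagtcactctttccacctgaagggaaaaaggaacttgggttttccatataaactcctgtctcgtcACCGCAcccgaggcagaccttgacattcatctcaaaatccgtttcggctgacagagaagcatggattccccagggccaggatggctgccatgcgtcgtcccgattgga
TGTGGT began 227 bases before the start of Ptprr on the strand of the gene, and TGCGGT lay on the other strand in Ptprj and Ptpre. Of all 32851 windows of that length, 16.8% held TGTGGT, 6.45% TGCGGT and 22.4% at least 1 of them, and 23.8% held GGAAGT. The other windows of these genes, 3 of Ptprr, 2 of Ptpre and 1 of Ptprj, held neither RUNX sequence. These are matches of letters and not measured binding sites.

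RNA was hybridised in 1 colour to 23 Agilent arrays on 3 slides, on which 48.8 to 78.4% of spots were well above background and 0 were saturated. Values are log2 intensities after quantile normalization, in which a difference of 1 is 2-fold, and levels of different probes are not compared. Calls required both 2-fold or more and P of 0.001 or less in limma, and adjusted P is the Benjamini-Hochberg value over the 15202 genes. Runx1t1, the mouse counterpart of the ETO moiety, read 10.56 to 11.14 in HE without Dox and 11.81 to 12.44 with Dox, 9.74 to 10.11 and 11.51 to 12.46 in HE2, 7.50 to 7.92 and 11.05 to 12.30 in progenitors and 9.28 to 10.52 and 11.93 to 12.13 in myeloid progenitors, so that induced arrays lay above uninduced arrays at every stage. Runx1t1 was called higher with Dox in HE2 and myeloid progenitors and was not called in HE. Whether its probe reads the human transgene, the mouse gene or both was not tested. All 6 endothelial markers (Tek, Cdh5, Kdr, Pecam1, Tie1 and Esam) were well above background on all arrays, and so were the 6 myeloid markers on progenitor and myeloid progenitor arrays. The mean endothelial level was 10.40 to 10.92 on uninduced and 12.33 to 12.61 on induced myeloid progenitor arrays, 11.20 to 11.31 and 12.25 to 12.47 in progenitors, 11.78 to 12.82 and 12.82 to 13.74 in HE2, and 12.55 to 14.32 and 12.85 to 13.97 in HE. The mean myeloid level was 7.49 to 8.31 without and 7.66 to 8.08 with Dox in HE, 9.85 to 10.25 and 8.53 to 8.86 in HE2, 11.59 to 11.93 and 10.26 to 10.33 in progenitors, and 11.06 to 11.51 and 10.47 to 10.62 in myeloid progenitors. With Dox, both expressed epithelial markers fell in HE2 (Krt8 fell by 3.70, Krt18 fell by 2.67), as did Krt18 in HE, 3 of 4 megakaryocytic markers fell in myeloid progenitors and Pf4 in HE2, and of 4 stromal markers Col1a1 fell in HE and HE2 and Col3a1 rose in HE. Their part in the values below was not tested, and in bulk samples fewer cells of a type and less RNA per cell cannot be told apart.

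With Dox, Ptprb and Ptprr rose in HE, in HE2 and in myeloid progenitors. Ptpre fell in HE and HE2, and Ptprj fell in HE2 and myeloid progenitors. Thus 3 of the 10 genes were called in HE, where 7.09% of all genes were called (4.7% higher, 2.39% lower), 4 in HE2 with 7.22% of all genes (5.17% higher, 2.05% lower) and 3 in myeloid progenitors with 6.31% (5.13% higher, 1.18% lower). In progenitors, of the 9 genes other than Ptprb, Ptprr was over 2-fold higher with Dox and the other 8 were within 2-fold. Of all genes, 9.31% lay past 2-fold there. Ptprb, by whose change at this stage the set was chosen, is left out of that count. The median change of the 10 genes was 0.06 in HE and 0.36 in HE2, against -0.01 and -0.03 over all genes. In the progenitor and myeloid progenitor stages it was 0.14 and 0.12, against -0.04 and -0.02. The median in progenitors includes the value of Ptprb used for the choice. By an adjusted P of at most 0.05 with no limit on the fold, 3 of the 10 passed in HE (15.6% of all genes), 6 in HE2 (17.2%) and 6 in myeloid progenitors (13.8%).

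**Figure D1:**
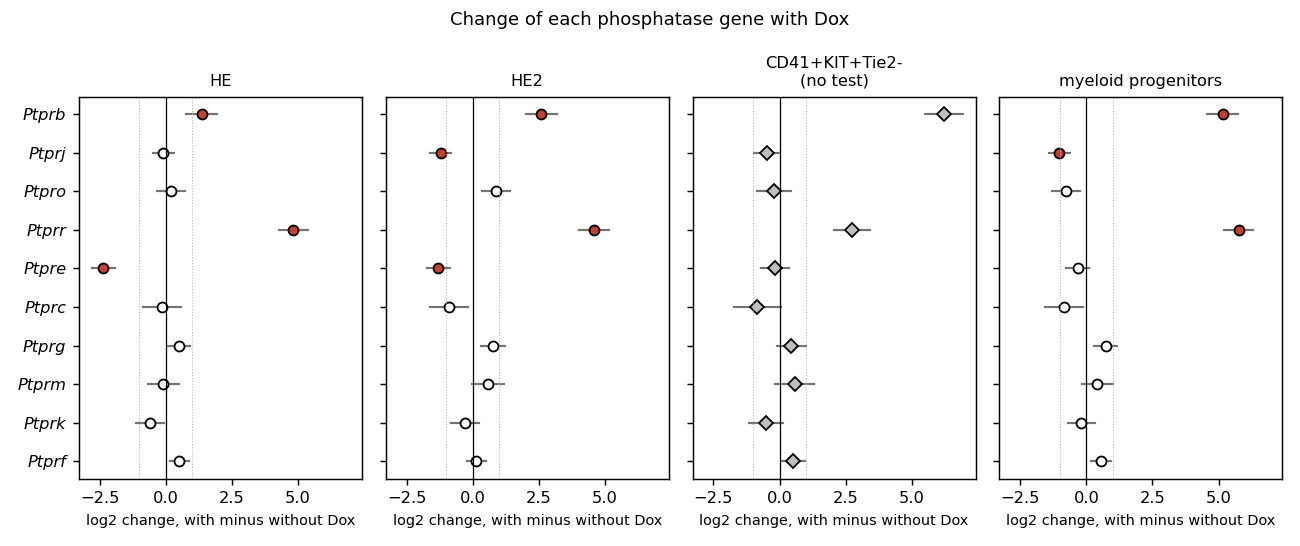
Log2 change of each gene with Dox at the 4 stages (points, with 95% confidence intervals of the limma fit as lines). Filled circles were called, open circles were not, grey diamonds (progenitors) were not tested, and dotted lines mark 2-fold. Ptprb and Ptprr lie to the right in every panel, Ptpre to the left in HE and HE2, and Ptprj to the left in HE2 and myeloid progenitors.

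Ptprb was read at 14.29, 14.39 and 14.77 in HE without Dox, at 12.83, 12.94 and 12.86 in HE2, at 8.49 and 8.35 in progenitors and at 8.70, 10 and 9.47 in myeloid progenitors. With Dox it was read at 16.27, 15.59 and 15.67 in HE, at 14.95, 15.70 and 15.77 in HE2, at 14.52 and 14.73 in progenitors and at 14.78, 14.43 and 14.42 in myeloid progenitors. Every induced array lay above every uninduced array of its stage, and the induced progenitor and myeloid progenitor arrays, at 14.42 to 14.78, lay close to those of uninduced HE. Ordered by group mean, induced HE (15.84) and induced HE2 (15.47) came first with overlapping arrays. Induced progenitors (14.63), induced myeloid progenitors (14.54) and uninduced HE (14.48) followed, again with overlapping arrays, and then uninduced HE2 (12.88), uninduced myeloid progenitors (9.39) and uninduced progenitors (8.42), which did not overlap.

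The increase of Ptprb was 2.56-fold in HE (log2 change 1.36 ± 0.28, SE, adjusted P = 0.0023), 6.03-fold in HE2 (2.59 ± 0.28, adjusted P = 6.35e-06) and 35.6-fold in myeloid progenitors (5.15 ± 0.28, adjusted P = 1.51e-09). In progenitors the induced mean was 73.8-fold higher (6.21), the value by which the gene was noticed. Within slides, the change was 1.92 and 0.86 in HE and 2.06 and 2.87 in HE2, and all myeloid arrays shared 1 slide. A 2nd probe of Ptprb gave 1.33 in HE, 2.30 in HE2 and 4.62 in myeloid progenitors, and 4.55 in progenitors against the 6.21 of the probe used. The call in HE did not pass the P limit with array quality weights (log2 change 1.44), without uninduced HE array 1 (1.26) and without induced HE array 1 (1.14).

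**Figure D2:**
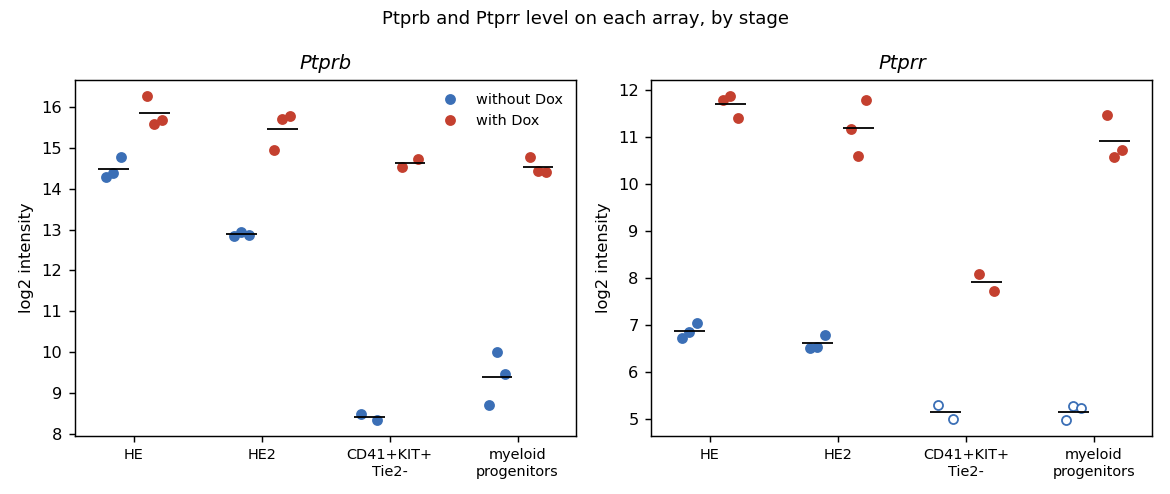
Log2 intensity of Ptprb (left) and Ptprr (right) on each array at the 4 stages, without Dox (blue) and with Dox (red). Bars are group means, and open symbols are groups in which the probe was not well above background on any array. For both genes every red point lies above the blue points of its stage.

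The partners of Ptprb did not all move with it. Tek, which encodes Tie2, was 3.07 higher on the log2 scale with Dox in myeloid progenitors (SE 0.718, adjusted P = 0.00679). Kdr, the VEGF receptor (2.24, SE 0.3, adjusted P = 4.45e-05), and Cdh5, VE-cadherin (1.69, SE 0.256, adjusted P = 0.000145), were higher too. Thus 3 of 6 listed partners rose, where 5.13% of all genes were called higher. All 3 are also among the 6 endothelial markers, of which 4 rose there. None of the 6 partners was called by limma in HE, with 2 at an unadjusted P under 0.05. In HE2, Angpt2, the antagonist ligand of Tie2, rose by 1.49 (adjusted P = 0.00624) and Angpt1, its agonist, fell by 2.14 (adjusted P = 0.000731). Tie2, the protein encoded by Tek, was a sort marker, and the part of the gates in the levels of Tek was not tested.

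Over the 8 group means, 1547 expressed genes spanned at least 3 on the log2 scale, and the 5 whose means followed Ptprb most closely were Tspan12 (Pearson r = 0.989), Fmo1 (0.979), Ddah2 (0.978), Tmcc3 (0.973) and Sema3f (0.971). Tspan12 encodes a tetraspanin of endothelial cells and Sema3f a semaphorin. Their changes with Dox in myeloid progenitors were 2.46, 2.67, 2.54, 2.24 and 3.22, and 1.99 to 4.07 in progenitors. As they were picked for following means that include these groups, higher values with Dox there follow from the choice. Ptprr ranked at 218 with r = 0.83. These correlations describe 8 means that share the same 22 arrays.

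Ptprr was low in every uninduced group. Without Dox it read 6.71, 6.84 and 7.03 in HE and 6.51, 6.52 and 6.78 in HE2, and it was not well above background on any of the uninduced progenitor arrays (5.30 and 4.99) or uninduced myeloid progenitor arrays (4.98, 5.27 and 5.22). With Dox it read 11.79, 11.87 and 11.39 in HE, 11.17, 10.59 and 11.79 in HE2, 8.08 and 7.71 in progenitors and 11.46, 10.58 and 10.71 in myeloid progenitors. Induced and uninduced arrays were separate at every stage, and the arrays of induced HE, HE2 and myeloid progenitors overlapped.

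The increase of Ptprr was 28.3-fold in HE (log2 change 4.82 ± 0.265, SE, adjusted P = 2.33e-09) and 24-fold in HE2 (4.58 ± 0.265, adjusted P = 1.11e-08). In myeloid progenitors it was at least 51-fold (adjusted P = 2.26e-10), with measured means of 10.92 and 5.15. Such a bound sets the dim group, on each array, at the higher of the signal of its own probe and the lowest signal well above background. In progenitors the induced mean of 7.90 was at least 6.74-fold above the uninduced mean of 5.14, where the probe's own signal was not below that lowest signal on either array, so that the bound equals the measured fold. The induced progenitor arrays lay below all other induced arrays. Within slides, the change was 5.02 and 4.60 in HE and 4.66 and 4.41 in HE2. No alternative setting ended a call of Ptprr with Dox at these stages.

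Ptprr and Ptprb lie next to each other on chromosome 10 in the RefSeq table, with 0 genes in the gap between them, while Taf7l2 lies within the interval of Ptprr. Among the 3 nearest expressed protein-coding genes on either side, Kcnmb4, a potassium channel subunit next to Ptprb, rose in HE (1.17, adjusted P = 0.00392), HE2 (1.32, adjusted P = 0.00146) and myeloid progenitors (1.92, adjusted P = 4.45e-05). Myrfl rose in HE (1.64, adjusted P = 0.000215) and HE2 (1.74, adjusted P = 0.000144) and read 0.79 in myeloid progenitors. On the side of Ptprr, Tspan8 rose in myeloid progenitors (1.12, adjusted P = 0.000843), and Lgr5, a receptor for R-spondins, fell by 2.03 in HE2 (adjusted P = 0.00902) and read -1.71 in HE. Zfc3h1 and Cnot2 were not called with Dox at these stages, with changes from -0.10 to 0.40. The neighbours thus moved in both directions or were not called, and each called change among them was smaller than that of Ptprr at the same stage. In HE the change of Myrfl (1.64) was above that of Ptprb (1.36), a difference that was not tested.

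**Figure D3:**
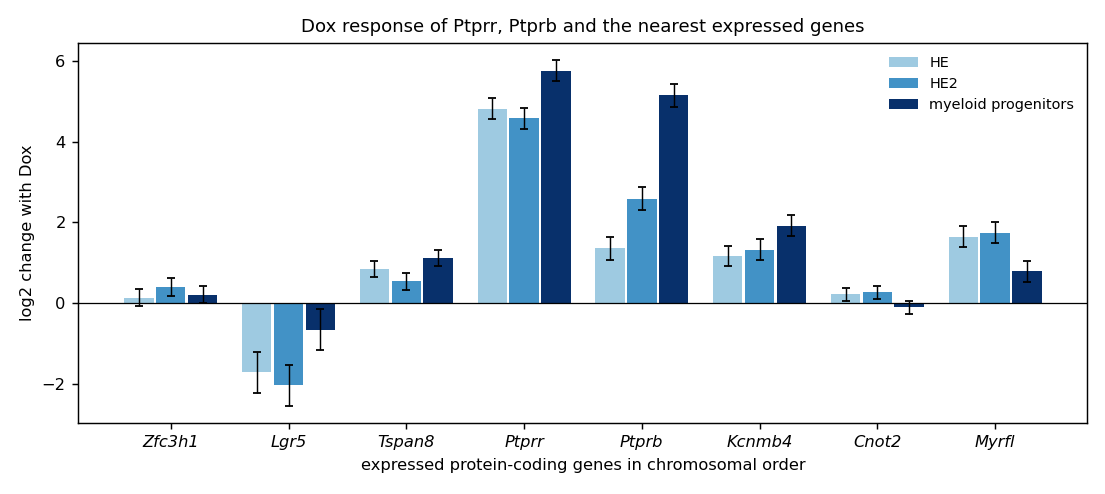
Log2 change with Dox (bars, with SE) of Ptprr, Ptprb and the 3 nearest expressed protein-coding genes on each side, in the order of the RefSeq table, in HE, HE2 and myeloid progenitors. Ptprr has the highest bar at each stage, Kcnmb4 lies between 1.17 and 1.92, and Lgr5 lies below 0.

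Ptpre, which acts on Src family kinases, was called with Dox in HE and HE2 and not in myeloid progenitors. Without Dox it read 10.25, 10.06 and 10.15 in HE, 11.29, 11.45 and 11.81 in HE2, 11.82 and 12.06 in progenitors and 11.92, 11.48 and 11.50 in myeloid progenitors. With Dox it read 7.82, 8.02 and 7.53 in HE, 10, 10.29 and 10.37 in HE2, 11.53 and 12 in progenitors and 11.62, 10.97 and 11.31 in myeloid progenitors. The groups were separate in HE and HE2 and overlapped in both later stages. Ptpre fell by 2.36 on the log2 scale in HE (SE 0.206, adjusted P = 4.42e-07, 5.15-fold) and by 1.30 in HE2 (adjusted P = 0.000274, 2.45-fold), with -2.34 and -2.37 within slides in HE and -1.37 and -1.48 in HE2. In myeloid progenitors the difference was -0.33 with a 95% confidence interval from -0.77 to 0.10.

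Ptprj (DEP-1) was read at 6.96, 7.42 and 6.90 in uninduced HE and at 7.08, 7.21 and 6.70 in induced HE, which overlapped. In HE2 it was read at 8.54, 8.95 and 8.82 without and 7.40, 7.69 and 7.58 with Dox, and in myeloid progenitors at 10.40, 9.97 and 10.32 without and 9.08, 9.17 and 9.34 with Dox. Induced arrays were all lower at these stages. In progenitors, 9.49 and 9.90 stood against 9.22 and 9.23. With Dox, Ptprj fell by 1.21 in HE2 (SE 0.19, adjusted P = 0.000232) and by 1.03 in myeloid progenitors (adjusted P = 0.00094), with -1.34 and -1.19 within slides in HE2. The difference in HE was -0.10, with a 95% confidence interval from -0.50 to 0.30. Its 4 probes differed in size, from -1.21 to -0.26 in HE2 and from -1.11 to -0.50 in myeloid progenitors. With the mean of the probes the change was -0.63 in HE2 and -0.80 in myeloid progenitors, and neither passed. In myeloid progenitors the change also came under 2-fold in 6 other settings, among them the fits without uninduced array 1 (-0.95), uninduced array 3 (-0.99) or induced array 1 (-0.97).

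Ptpro, of the same subfamily as Ptprb and Ptprj, was not called with Dox at any tested stage. In HE2 it read 6.44, 7.14 and 6.85 without and 7.35, 7.75 and 8.03 with Dox, which is 0.90 higher (adjusted P = 0.019). In myeloid progenitors it read 9.56, 9.47 and 8.61 without and 8.42, 8.18 and 8.69 with Dox, or -0.78 (adjusted P = 0.0469). The arrays were separate in HE2 and overlapped through uninduced myeloid array 3, without which the difference was -1.08 and passed. Ptprc (CD45) was lower on all induced than uninduced arrays in HE2 (6.84, 6.59 and 6.96 against 6.03, 6.08 and 5.55), a difference of -0.91 that was not called (adjusted P = 0.079), and in myeloid progenitors it read -0.84 (adjusted P = 0.123) with overlapping arrays.

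**Figure D4:**
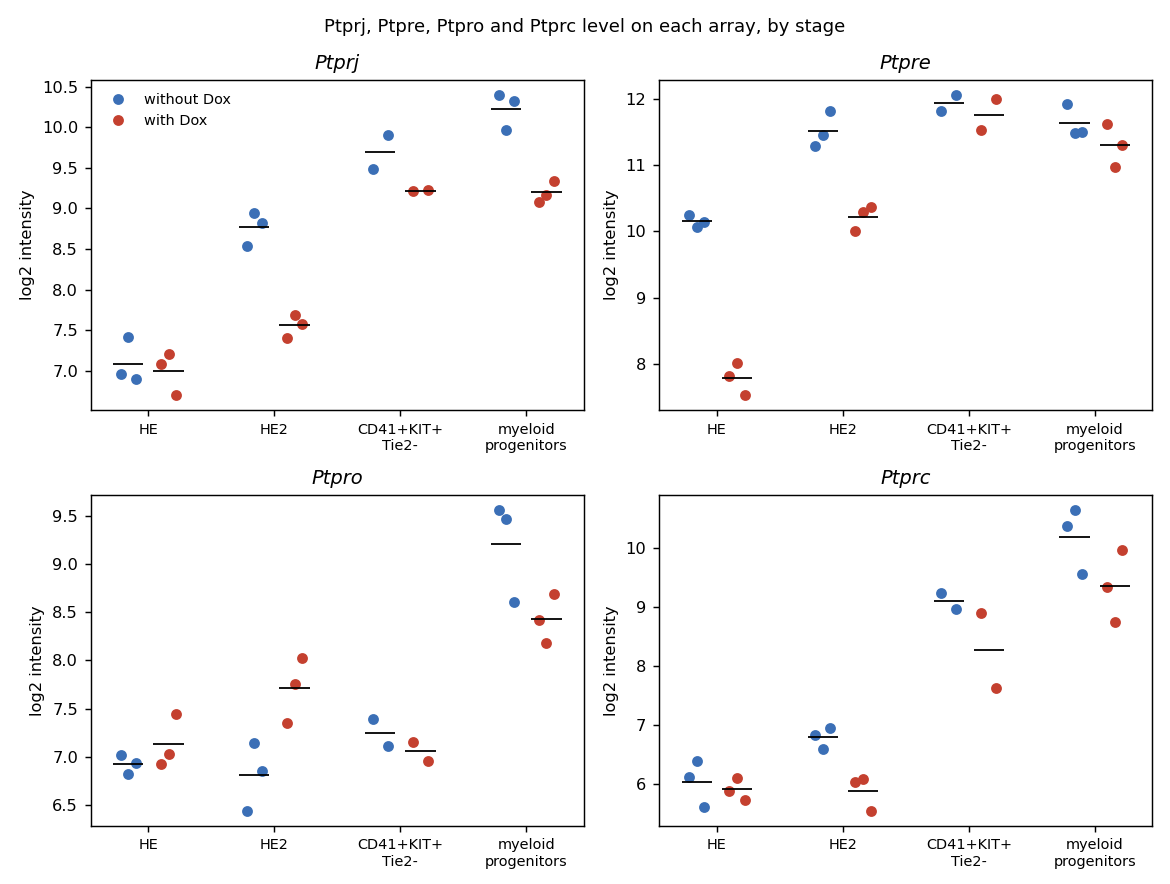
Log2 intensity of Ptprj, Ptpre, Ptpro and Ptprc on each array at the 4 stages, without Dox (blue) and with Dox (red), with group means as bars. Ptpre is separated by Dox in HE and HE2, Ptprj in HE2 and myeloid progenitors, and Ptprc is low in HE and HE2 and high in both progenitor stages.

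Among genes listed as substrates, ligands or partners of Ptprc, Ptpre and Ptprj, Fyn, a Src family kinase, rose with Dox in HE (1.1, SE 0.15, adjusted P = 4.9e-05) and HE2 (1.2, adjusted P = 2.76e-05), and Yes1 rose in HE2 (1.29, adjusted P = 0.00511). Lck, also of that family, fell by 1.27 in HE (adjusted P = 0.00984). Sdc2 and Thbs1, for which binding to DEP-1 has been described, fell by 1.37 in HE2 (adjusted P = 0.00104) and by 1.51 in HE (adjusted P = 0.00243). In myeloid progenitors Fyn read 0.54 (adjusted P = 0.0221) and was not called.

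Ptprg, Ptprm, Ptprk and Ptprf, the members with adhesion-type or carbonic anhydrase-like outer parts, were not called with Dox at any tested stage. Ptprg was higher on all induced than all uninduced arrays at every stage, with changes of 0.48 in HE, 0.77 in HE2 (adjusted P = 0.0165) and 0.73 in myeloid progenitors (adjusted P = 0.0265), and with 0.45 in progenitors. Its other probes gave 0.25 to 0.89 with Dox over the 4 stages. Ptprf was likewise higher on all induced arrays of each stage, by 0.51 in HE and also in progenitors, 0.14 in HE2 and 0.56 in myeloid progenitors (adjusted P = 0.041). Ptprm read -0.09, 0.59 and 0.42 in HE, HE2 and myeloid progenitors, and Ptprk -0.61, -0.30 and -0.19. Both probes were near background, well above it on 18 and 17 of the 22 arrays. Of the 4 expressed genes listed as their partners at junctions and adhesions, Cdh2 (N-cadherin) rose with Dox in myeloid progenitors by 2.05 (SE 0.332, adjusted P = 0.00029), and without Dox it fell by 1.53 from HE to HE2 (adjusted P = 0.00544) and by 1.82 from HE2 to progenitors (adjusted P = 0.00342). In HE and HE2 limma called 0 of the 4 with Dox, with 0 and 3 at an unadjusted P under 0.05.

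Without Dox, 3 of the 10 genes were called from HE to HE2, where 5.07% of all genes were called. Ptprj rose by 1.67 (SE 0.19, adjusted P = 1.47e-05) and Ptpre by 1.36 (SE 0.206, adjusted P = 0.000312), and Ptprb fell by 1.61 (SE 0.28, adjusted P = 0.00104). All HE2 arrays lay on the same side of all HE arrays for each of them, and within slides the values were 1.55 and 1.92 for Ptprj, 1.21 and 1.66 for Ptpre and -1.46 and -1.90 for Ptprb. With the mean of its 4 probes, Ptprj read 0.88 and did not pass 2-fold. By adjusted P alone 5 passed, against 10.6% of all genes. These uninduced HE and HE2 arrays are also those of the comparisons with Dox above.

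From HE2 to progenitors without Dox, 3 of the 9 genes other than Ptprb were past the threshold, on 2 progenitor arrays, where 5.39% of all genes were called. By adjusted P alone 4 of the 9 passed, against 8.18%. Ptprc rose 4.96-fold, from 6.59 to 6.96 in HE2 to 8.98 and 9.24 (log2 change 2.31, SE 0.384, adjusted P = 0.000542). Ptprg fell by 1.33 (adjusted P = 0.00102), from 8.76 to 8.95 down to 7.37 and 7.65. Ptprr fell at least 2.75-fold, to a level not well above background (adjusted P = 0.00319). Ptprb was 4.46 lower, 22-fold, a value that rests on the arrays by which it was noticed. Without uninduced progenitor array 2, Ptprr (-1.30) and Ptprg (-1.19) did not pass, and Ptprr came to -0.92 with an offset of 50 and to -0.95 in the deposited log2 values. With the mean of its probes Ptprg read -1.11 and did not pass.

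**Figure D5:**
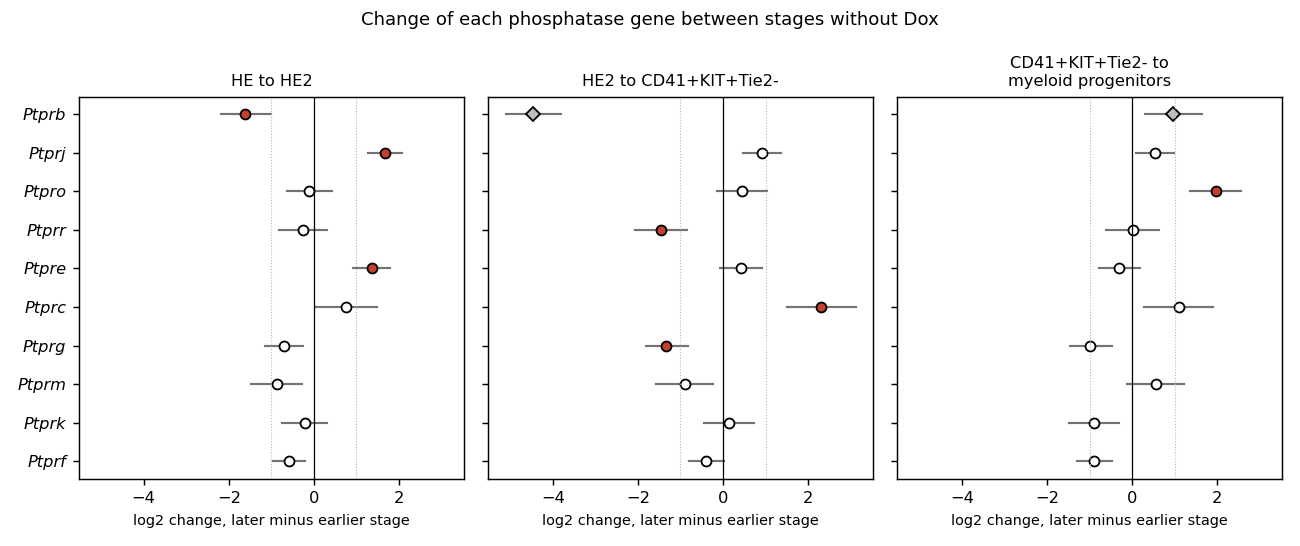
Log2 change of each gene between successive stages without Dox (points, with 95% confidence intervals of the limma fit as lines). Filled circles were called, open circles were not, grey diamonds are the values of Ptprb that rest on the arrays by which it was noticed, and dotted lines mark 2-fold. Ptprj and Ptpre lie to the right from HE to HE2, Ptprc from HE2 to progenitors and Ptpro from progenitors to myeloid progenitors.

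From progenitors to myeloid progenitors without Dox, only Ptpro of the 9 genes other than Ptprb was called, while 13.9% of all genes were. By adjusted P alone 5 of the 9 passed, against 33.1%. It read 7.39 and 7.11 in progenitors and 9.56, 9.47 and 8.61 in myeloid progenitors, a 3.9-fold increase (log2 change 1.96, SE 0.282, adjusted P = 4.81e-05). The arrays of these stages lay on different slides and scan dates, apart from the additional progenitor array on the slide of the myeloid arrays, at 7.13. The myeloid arrays exceeded that array by a mean of 2.08. Over all genes, 2118 were called at this step in the main fit. The number was 574 with the slide as a block and 582 with the scan date as a block. With only these groups in the fit the same change of Ptpro did not pass the P limit. Several other members were close to the threshold, with Ptprc at 1.09 (adjusted P = 0.0365), Ptprg at -0.98 (adjusted P = 0.00422) and Ptprf at -0.89 (adjusted P = 0.00211). With the slide as a block Ptprf read -1.48 and passed. Ptprj read 0.54 (adjusted P = 0.0588) by the probe used, and its other probes gave 0.50, 1.02 and 1.81.

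With Dox, only Ptpre was called from HE to HE2, against 3.1% of all genes, with a rise of 2.43 (SE 0.206, adjusted P = 4.51e-06). Ptprb read -0.37 with a 95% confidence interval from -0.96 to 0.22, with -1.32 and 0.10 within slides. Ptprj read 0.56 with an interval from 0.16 to 0.96, and Ptprf -0.97 (adjusted P = 0.00222), just under 2-fold. Without induced HE array 2, Ptprf read -1.07 and passed. By adjusted P alone 2 of the 10 passed, against 5.67% of all genes. From HE2 to progenitors with Dox, where 12.7% of all genes lay past 2-fold and no test was made, Ptprj (1.67), Ptpre (1.54) and Ptprc (2.39) were higher and Ptprr (-3.29) and Ptprg (-1.64) lower, while Ptprb read -0.85.

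The response to Dox differed between stages for some members, as tested by interaction terms. Between myeloid progenitors and HE, 4.72% of all genes were called and 2 of the 10 genes were. The response of Ptprb was larger in myeloid progenitors by 3.8 (SE 0.395, adjusted P = 1.66e-05). That of Ptpre was less negative there by 2.03 (SE 0.292, adjusted P = 0.000319), at -0.33 against -2.36 in HE. Between myeloid progenitors and HE2, 2.19% of all genes were called, among them Ptprb (2.56, SE 0.395, adjusted P = 0.00136) and Ptpro (-1.68, SE 0.357, adjusted P = 0.0153), which read 0.90 in HE2 and -0.78 in myeloid progenitors. By adjusted P alone, 3 of the 10 passed against 6.87% of all genes for the first of these differences and 2 against 2.34% for the second. Between HE2 and HE, 1.34% of all genes were called, among them Ptprj (-1.12, SE 0.268, adjusted P = 0.0559), while 0 of the 10 and 0.888% of all genes passed by adjusted P. That call of Ptprj was lost in 8 of 12 fits that left out an array, in which it read -1.13 to -1.01. Ptpre was not called between HE2 and HE (1.07, adjusted P = 0.105) or between myeloid progenitors and HE2 (0.96, adjusted P = 0.107). The response of Ptprr did not differ past the threshold in any of the 3 terms (-0.24, with an interval from -1.03 to 0.55, between HE2 and HE, 0.94, from 0.15 to 1.72, between myeloid progenitors and HE, and 1.18, from 0.39 to 1.97, between myeloid progenitors and HE2). The terms with myeloid progenitors rest on an uninduced level of Ptprr that was not well above background.

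Of 12 other receptor-type PTP genes, 6 were expressed (Ptpra, Ptprd, Ptprn, Ptprn2, Ptprs and Ptpru), and limma called 0 of 6 in every tested comparison. At an unadjusted P under 0.05, 2 of the 6 differed with Dox in HE, 3 in HE2 and 1 in myeloid progenitors, and the changes ran from -0.43 to 1.31 over these stages. Ptprs came closest by adjusted P, at 0.79 in HE (adjusted P = 0.00659) and 0.86 in HE2 (adjusted P = 0.00382), just under 2-fold. Of 14 expressed non-receptor PTP genes, Ptpn6 (SHP-1, a phosphatase of blood cells) fell by 1.38 with Dox in HE2 (adjusted P = 0.00414) and Ptpn22 fell by 1.05 in myeloid progenitors (adjusted P = 0.00158). In HE limma called 0 of 14, with 3 at an unadjusted P under 0.05. Without Dox, Ptpn6 (1.83) and Ptpn7 (2.44) rose from HE to HE2, Ptpn6 (1.37) and Ptpn22 (1.15) from HE2 to progenitors, and Ptpn11 (1.1) and Ptpn22 (1.68) from progenitors to myeloid progenitors.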

How the data were processed

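RNA from sorted mouse ES cell-derived cells was hybridised to Agilent 8x60K arrays, of which the authors deposited the scanner output with median spot and background intensity values. The authors also deposited background-corrected, quantile normalized log2 values per array. Their lowest correlation on an array with the background-corrected log2 intensities made here, taken before quantile normalization, was 0.9702. Per the labels, images were read with Feature Extraction 10.7.1.1, while the file headers name 10.7.3.1.

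Intensities of 23 arrays were background-corrected (normexp, offset 16) and quantile normalized with limma 3.58.1 in R 4.3.3, without 3671 control spots per array and 4423 outlier spots in all. Spots of a probe were averaged. Of 55681 probes, 26582 had a symbol in the RefSeq table (GRCm38.p6). The highest-mean probe stood for each of 20145 genes, and 15202 reached a log2 value of 6.5 on at least 1 array. A model with a mean for each of the 8 groups was fitted to 22 arrays (14 residual degrees of freedom) and tested on simulated data. A gene was called at P of at most 0.001 and at least 2-fold. Where a probe was dim on all arrays of a group, its level there is a bound. The 10 members, the partner, PTP and marker lists and the naming rule (all members, the called genes of each list, the 5 genes most like Ptprb) were chosen with earlier results of these data known. Some genes of these lists are not reported here. 0 value columns were left unassigned. An induced myeloid progenitor array labelled both as a biological and as a technical replicate was used as replicate 3. The number of arrays limits the precision.

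Arrays with the same replicate number deviated together in HE and HE2 without Dox (correlations of 0.394, 0.795 and 0.608), where they also shared a slide. In the other comparisons with 3 pairs at least 1 correlation was below 0, and those with progenitors had only 2 pairs (-0.174 to 0.381), too few to take the numbers as pairs. HE, HE2 and 3 of 4 fitted progenitor arrays lay on slides 1 and 2, the other progenitor array and all myeloid arrays on slide 3 with its own scan date. Alternatives changed the offset, background correction, scaling, filter, probe choice, threshold, arrays, weights and blocks. Within-slide values and values of every probe were added after seeing the data.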

Additional observations from a re-analysis of the deposited data

Results flagged for a closer look

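The response to Dox of Ptprb was larger in myeloid progenitors than in HE by 3.8 on the log2 scale and larger than in HE2 by 2.56, both from a term for the difference in the limma fit. That of Ptpre was less negative in myeloid progenitors (-0.33) than in HE (-2.36), by 2.03. Ptprj changed more negatively in HE2 than in HE, by -1.12, and Ptpro more negatively in myeloid progenitors than in HE2, by -1.68. Myeloid progenitors received Dox for 12 h in another culture and were all on slide 3, so that stage, culture, length of induction and slide cannot be told apart in the 4 differences that involve them.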

How the results depend on the processing

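Over single members and alternatives, 903 values kept direction and side of the threshold, 34 lost and 36 gained a call, and 0 changed direction. With an adjusted P of at most 0.05 and no fold limit, 6 members passed with Dox in myeloid progenitors, 5 from HE to HE2 without Dox, 2 with Dox, 6 from progenitors to myeloid progenitors (Ptprb among them) and 0 for the difference between HE2 and HE. With 2-fold added, the last 2 counts were 2 and 0. From progenitors to myeloid progenitors, 2 were called with 75th percentile scaling and with slide or scan date as a block, and 0 with only the groups compared. For the difference between HE2 and HE, 0 were called with only the groups compared, the slide block, the mean of probes or array weights, and for that between myeloid progenitors and HE2, 1 with only the groups compared and 4 with array weights. With the replicate block 2 members were called for the difference between HE2 and HE (Ptprj and Ptpre), and no other count of member calls changed. The change of Ptprb with Dox in progenitors was 6.07 with an offset of 50, 6.07 in the deposited values and 5.38 with the mean of its probes.

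Leaving out 1 array at a time gave 2 to 3 members with Dox in HE, 4 to 4 in HE2, 2 to 3 in myeloid progenitors, 3 to 3 from HE to HE2 without Dox and 1 to 2 with Dox, 2 to 5, Ptprb included, from HE2 to progenitors (2 without uninduced progenitor array 2), 1 to 3 from progenitors to myeloid progenitors (3, Ptprb included, without uninduced myeloid array 1, 2 without array 2), 0 to 1 for the difference between HE2 and HE, 2 to 3 for both differences with myeloid progenitors and 6.10 to 6.31 for Ptprb in progenitors. A progenitor group left with 1 array was taken to vary like the others. The cause of these changes was not tested. Levels of Ptprr, Ptprm and Ptprk near background limit their folds.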

Other observations

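The additional uninduced progenitor array, which was normalized with the others but not fitted, read 8.69 for Ptprb, 9.50 for Ptprj, 12.40 for Ptpre, 8.37 for Ptprc, 7.51 for Ptprg, 7.13 for Ptpro, 11.45 for Ptprf, 6.18 for Ptprm and 6.40 for Ptprk, and 4.78, not well above background, for Ptprr. Its Ptprb value lay below those of all uninduced myeloid progenitor arrays, the lowest of which read 8.70.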
